A study of Saccharomyces cerevisiae with 10 samples.

Results

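The 38 nuclear genes described here encode the subunits of respiratory complexes II, III and IV, both forms of cytochrome c, the NADH dehydrogenase NDI1 and the ATP synthase of *Saccharomyces cerevisiae*. They were chosen by systematic name, from what their products are, and all 38 were among the 6717 yeast genes in the table. The cells were *rpb1-1/caf1*Δ haploids, which carry a temperature-sensitive largest subunit of RNA polymerase II and lack Caf1 (Pop2), a deadenylase of the Ccr4-Not complex. A mid-log culture kept at 24°C was moved to 37°C, which stops RNA polymerase II. RNA was taken at 0 min, early on at 3, 6, 8 and 10 min, then at 15, 20 and 30 min, and last at 45 and 60 min, with 1 library per time point and no replicates. The 0 min cells had not been warmed, so loss of transcription and the warmer temperature cannot be told apart in any later library. Every library comes from the *caf1*Δ strain, the *rpb1-1* libraries with intact *CAF1* were not analysed here, and no value below measures what the deletion does.

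The respiratory chain of the inner mitochondrial membrane passes electrons from NADH and succinate through ubiquinone, complex III and cytochrome c to oxygen, and the ATP synthase uses the proton gradient that complexes III and IV build. Budding yeast has no proton-pumping complex I, and NDI1 oxidizes matrix NADH in its place. Most subunits are encoded in the nucleus and a few in mitochondrial DNA, which a separate RNA polymerase transcribes. Many of the nuclear genes are classical targets of the Hap2/3/4/5 activator, which binds CCAAT boxes. Many mRNAs of mitochondrial proteins are bound in the 3′ UTR by Puf3, which recognizes TGTANATA and can recruit Ccr4-Not.

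Those motifs were searched in the R64 genome, and a match is a description of letters, not a proven site. The longer CCAAT form ACCAATNA, searched on both strands of the 500 bases before the start codon, was present in 17 of the 38 genes (44.7%) and in 462 of 5422 named nuclear protein-coding genes (8.52%). CCAAT alone, which lies inside that form, was in 35 of 38 (92.1%), against 62.4% of the 5422 genes. COX4, CYC1 and CYT1 had no CCAAT in this window. TGTANATA, searched on the sense strand of the 250 bases after the stop codon, was in 7 of 38 genes (18.4%), against 16% of the 5422. The ACCAATNA matches below, in capitals within 30 bases of the strand that reads ACCAATNA, come from a gene each of complexes II, III and IV, NDI1 and the ATP synthase, and show how the bases around the motif differ.
SDH1, chrXI:171429-171458, minus strand: ggcgggggtggACCAATCAcagcgcagaac
NDI1, chrXIII:30017-30046, minus strand: tattcattcggACCAATCAtatgaaggcat
QCR7, chrIV:1496712-1496741, minus strand: atcttgttttgACCAATCAggagcgacgcg
COX13, chrVII:144584-144613, plus strand: ttttttttcccACCAATGAgaggcggtact
ATP3, chrII:315368-315397, plus strand: cgtgatggagaACCAATGAgcggcgagtaa
The TGTANATA matches are shown in the same way for 4 genes whose levels are followed below, ATP1 and SDH2, whose change over time did not pass the test, and COX8 and TIM11, which fell.
ATP1, chrII:38729-38758, plus strand: tcaaaaagaaaTGTAAATAtagaaatttta
SDH2, chrXII:52915-52944, minus strand: atgacccggtcTGTATATAtgtccatcata
COX8, chrXII:909679-909708, minus strand: ggatagatgtgTGTACATAgcgtgcttggt
TIM11, chrIV:1111840-1111869, minus strand: aaaaaatgaaaTGTATATAttctagaacat
The Puf3 motif of ATP1 starts 50 bases after the stop codon, that of COX8 starts 32 bases after it and that of SDH2 starts 198 bases after it.

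The values are FPKM, fragment numbers per transcript length and library size, divided by the factor of each library's summed ERCC spike-in RNA relative to 0 min. These factors lay between 1 at 0 min and 1.42 at 60 min, and the scaled sum of all yeast FPKM at 60 min was 52.6% of that at 0 min. Steps between low FPKM values gave an estimate of 2291000 fragments in the shallowest library (15 min) and 4995000 in the deepest (45 min). The 28 genes with at least 300 coding bases had an estimated 34.6 (COX4) to 1860 (ATP1) fragments each at 0 min, with a median of 181. The other 10 genes are shorter than 300 coding bases, as are 3.04% of the 5422, and their FPKM depends strongly on how fragment length was handled. The deleted gene *CAF1* (POP2, YNR052C) was listed at no more than 0.887 scaled FPKM in any library, whereas CCR4, the other deadenylase of the complex, had 56.9 at 0 min. This bears on the labels, which give the strain number both of the *caf1*Δ strain and, in the growth protocol, of the *rpb1-1* parent with intact *CAF1*. HIS3, which marks the deletion in the strain list, was listed at 0 in all 10 libraries, which goes against that marker, and the reason was not tested. Libraries also shifted as a whole: 29 of the 38 mRNAs (76.3%) read higher at 10 min than at 8 min, and so did 83.6% of the 4658 named nuclear genes whose 0 min FPKM was 10 or more, by the same median ratio of 1.18.

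Most of these mRNAs fell after the shift. A slope over time was fitted with limma to log2(scaled FPKM + 1) and is given as the fitted log2 change over 60 min. By this test 25 of 38 members fell (65.8%) and 0 rose, 13 were not called, and 0 had a positive slope at an unadjusted p under 0.05. Over all 6045 yeast genes tested, 53.0% fell and 1.79% rose. When only the 4528 genes averaging 10 or more scaled FPKM were tested, all 38 members among them, 61.1% fell and 2.23% rose. In that test 25 members fell and 0 rose. With log2(min + 1) as the time term 27 members and 70.6% of all genes fell. The share of members that fell therefore stood less far above the background, or close to it, in these settings. The counts called in each complex and list below stand beside the shares of all 6045 genes. The median fitted change was −0.98 for the members and −1.02 for all genes, and 22 of 38 lay above the median of all genes. Of the 25 calls, 20 held whichever time point was left out and 5 were lost without at least 1 of them (ATP2, COX5A, COX5B, COX8 and QCR6). COX8 missed the threshold without 60 min (adjusted p = 0.0546), as did ATP2 (adjusted p = 0.0757). Other settings lost calls too, COX5B and COX8 with log2(min + 1) and COX5B with linear and quadratic time terms. Over 0 to 20 min ATP2, ATP15, COX5B, COX8, COX13 and SDH1 were not called. COX5A and QCR6 were not called when genes with a mean FPKM under 1 were also tested (adjusted p = 0.0778 and 0.0563).

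The direction of change depends on the spike-ins. On the deposited FPKM without spike-in scaling 18 members fell and 1 rose, while 40.7% of all genes fell and 5.19% rose. When the total yeast FPKM was made equal in all libraries 6 fell and 9 rose, against 25.5% and 12.3% of all genes, and the median fitted change of all genes moved up by 0.76 on the log2 scale. The position of the members against all genes moved less, since their median stood 0.04 above that of all genes with the spike-ins, 0.07 above on deposited FPKM and 0.09 above at equal totals. CYC1, COX4, COX9, ATP7, ATP15 and ATP16 fell under each of these 3 scalings. The 9 that rose at equal totals were ATP1, COR1, COX7, CYC7, NDI1, QCR2, QCR8, QCR9 and SDH2, none of which was called on spike-in-scaled values.

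**Figure D1:**
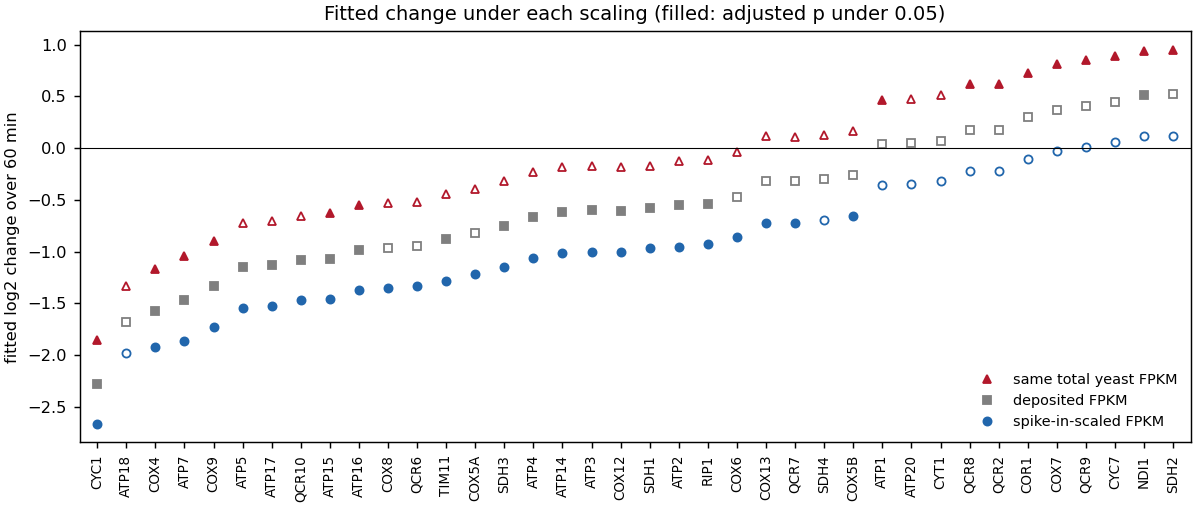
Fitted log2 change over 60 min (y axis) of each of the 38 mRNAs (x axis, ordered by the spike-in-scaled value) with values scaled to the same total yeast FPKM (triangles), as deposited (squares) and scaled to the spike-ins (circles); filled symbols have an adjusted p under 0.05. The 3 rows of symbols keep nearly the same order and are offset from each other; 9 triangles above 0 are filled, and NDI1 is the only square above 0 that is filled.

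Median levels relative to 0 min were higher for the members than for other genes at each time listed here. Over 3, 6, 15, 30 and 60 min, the median member stood at 94.6%, 88.2%, 71.7%, 51.7% and 50.5% of its starting level. The same medians over the 4658 nuclear genes were 82.3%, 66.9%, 48.9%, 39% and 35.4%. At 3 min 15 of the 38 members (39.5%) were above their 0 min level, against 13.8% of those genes, and at 60 min 2 were (COX7 and CYC7; 5.26%), against 5.6%. With log2(min + 1) in place of min as the time term, the median fitted change was −1.09 for the members and −1.35 for all genes. The difference between members and other genes in these levels was described and not tested.

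**Figure D2:**
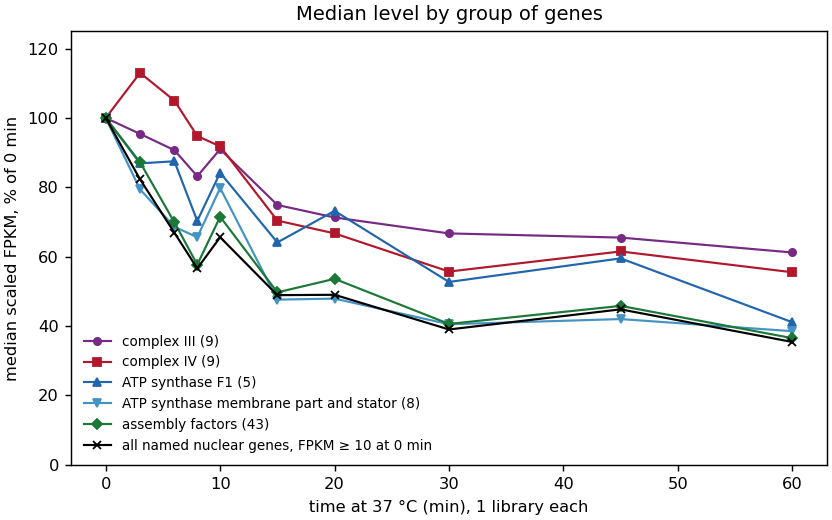
Median spike-in-scaled FPKM as a percent of 0 min (y axis) against time at 37°C (x axis, min, 1 library each) for 4 groups of subunit genes, the assembly factors and all named nuclear genes with at least 10 FPKM at 0 min; the number of genes is in brackets. Complex IV stood at 113% at 3 min and complex III ended at 61.2% at 60 min, while the ATP synthase membrane part and stator ended at 38.5% and all genes at 35.4%.

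Complex II, the succinate dehydrogenase that also works in the citric acid cycle, had 4 members, of which 2 fell. SDH3 (YKL141W, chrXI:179667 in R64), a membrane anchor, had 106, 121, 103, 86.4, 86.6, 73.9, 76.8, 52.8, 72.2 and 45.7 scaled FPKM from 0 to 60 min. It was highest at 3 min, lowest at 60 min, and fell by 1.15 ± 0.24 on the log2 scale (SE over 10 libraries, adjusted p = 0.00198). SDH2 (YLL041C, chrXII:53131), the iron-sulfur subunit that carries electrons from the flavoprotein to ubiquinone, had 50.1, 48.1, 44.8, 49.6, 60.8, 57.9, 68, 51.8, 64.1 and 48.4 scaled FPKM. Its level at 20 min was 136% of that at 0 min and its level at 60 min 96.8%, and the fitted change of 0.12 ± 0.24 was not called (adjusted p = 0.667). The flavoprotein SDH1 fell by 0.96 ± 0.27 (adjusted p = 0.0107), and the other anchor, SDH4, had −0.69 ± 0.29, which did not pass (adjusted p = 0.0605). SDH4 was called as falling without 6 min (adjusted p = 0.0305), with log2(min + 1) as the time term (adjusted p = 0.00823) and with linear and quadratic terms (adjusted p = 0.0352). The mRNAs for this enzyme ended at 43% (SDH3) to 96.8% (SDH2) of their 0 min levels, without a test of that difference. NDI1 (YML120C, chrXIII:28266), the internal NADH dehydrogenase, had 55.4, 46.4, 43.3, 40.2, 51.7, 42.9, 53.2, 52.7, 59.9 and 44.7 scaled FPKM. It was lowest at 8 min and highest at 45 min, and its fitted change of 0.12 ± 0.23 was not called (adjusted p = 0.68); on deposited FPKM it rose by 0.51 (adjusted p = 0.0294).

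Complex III, the ubiquinol-cytochrome c reductase, had the highest median level at 60 min of the 5 groups with at least 4 members. Of its 9 members 4 fell and 5 were not called, with a median fitted change of −0.32 and a median level of 61.2% at 60 min. The core proteins COR1 and QCR2, which face the matrix, had −0.10 ± 0.17 and −0.22 ± 0.18, and were at 85.6% and 86.6% of the 0 min level at 60 min. QCR9 (YGR183C, chrVII:859063), a small membrane subunit whose gene has 2 coding exons, had the highest mean of the complex, with 399, 319, 366, 332, 258, 299, 313, 287, 359 and 343 scaled FPKM. It was lowest at 10 min and highest at 0 min, and its fitted change was 0.01 ± 0.22 (adjusted p = 0.97); with 201 coding bases its FPKM is uncertain. QCR8, the ubiquinone-binding small subunit, was also not called, at −0.22 ± 0.17. CYT1, cytochrome c1, was not called at −0.32 ± 0.32 (adjusted p = 0.408), with 78.2 scaled FPKM at the start, a low of 32.6 at 15 min and 44.6 in the last library, and it was called as falling over 0 to 20 min (adjusted p = 0.0127) and with log2(min + 1) as the time term (adjusted p = 0.0319).

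The complex III mRNAs that fell were QCR6, QCR7, QCR10, a small membrane subunit (−1.47 ± 0.36, adjusted p = 0.00435), and RIP1, the Rieske iron-sulfur protein (−0.93 ± 0.26, adjusted p = 0.00916). QCR6 (YFR033C, chrVI:224326), the acidic hinge protein, had 75.7, 50.5, 27.2, 32.8, 39.8, 23.3, 19.9, 16.4, 22.8 and 21.4 scaled FPKM. Its level at 6 min was 35.9% of that at 0 min, the lowest of the 38 at that time, and later libraries stayed between 21.7% and 52.6%. It fell by 1.33 ± 0.46 (adjusted p = 0.0279), a call that was lost without 0 min (adjusted p = 0.0685) or without 3 min (adjusted p = 0.062). QCR7 (YDR529C, chrIV:1496165), a matrix-side subunit, had 211, 214, 175, 159, 192, 172, 151, 117, 138 and 129 scaled FPKM and fell by 0.72 ± 0.21 (adjusted p = 0.0118). Its level declined slowly, with 61.2% left at 60 min.

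**Figure D3:**
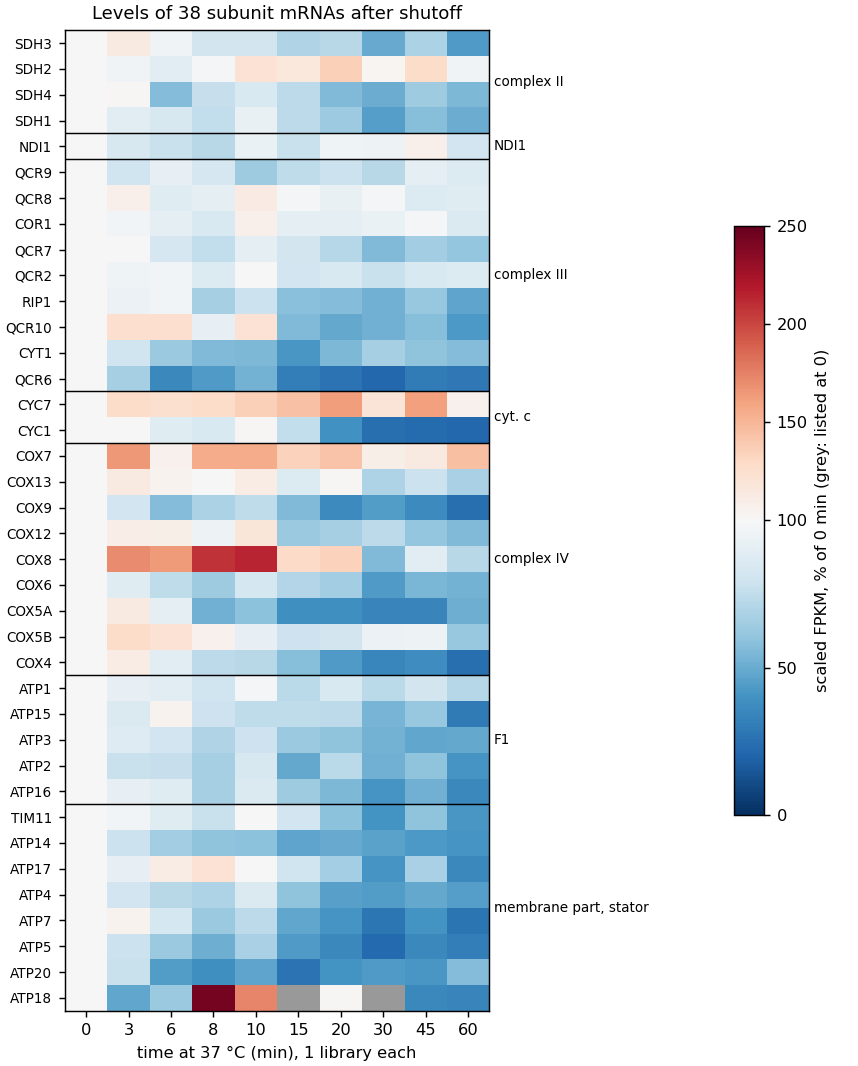
Spike-in-scaled FPKM of the 38 mRNAs (rows, grouped by complex and ordered by mean level) in the 10 libraries (columns, min at 37°C), as a percent of the same gene at 0 min; blue is below and red above 0 min, and grey marks ATP18 where it was listed at 0. CYC7 and COX7 stay above 100% in all later libraries, COX8 reaches 214% at 10 min, and most ATP synthase rows turn blue by 15 min.

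Cytochrome c, which shuttles electrons from complex III to complex IV, gave the widest range of fitted changes within a group, while levels at 60 min ranged more widely in complex IV (24.3% to 145%) than between its 2 genes (21.8% to 107%). CYC1 (YJR048W, chrX:526335) encodes iso-1-cytochrome c, the main form in air, and CYC7 (YEL039C, chrV:79636) encodes iso-2-cytochrome c, the form favored when oxygen is low. CYC1 had 156, 158, 137, 132, 159, 118, 60.9, 38.6, 36 and 33.9 scaled FPKM. It stayed at 85% or more of its 0 min level for 10 min, was at 39.1% at 20 min, and remained between 21.8% and 24.8% from 30 min on. CYC7 had 128, 162, 158, 163, 174, 184, 208, 151, 205 and 137 scaled FPKM, so that all 9 later libraries were above 0 min, with the highest, 163%, at 20 min. CYC1 fell by 2.66 ± 0.35 (adjusted p = 0.000208), the most negative change of the 38, and 6.47% of all genes tested had a more negative one. CYC7 had a fitted change of 0.06 ± 0.24 over the whole course (adjusted p = 0.857), and between 0 and 20 min alone it rose, by 1.76 per 60 min (adjusted p = 0.00931).

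The ratio of CYC7 to CYC1 within a library does not depend on how libraries are scaled. It was 0.819, 1.03, 1.15, 1.23, 1.09, 1.56, 3.42, 3.92, 5.68 and 4.05 from 0 to 60 min, above its 0 min value in all 9 later libraries. Its log2 value rose by 2.76 ± 0.51 over 60 min (SE, 10 libraries), with Pearson's r = 0.89 (two-sided permutation p = 0.00031, adjusted over both isoform pairs 0.00062) and Spearman's rho = 0.95 (permutation p = 5e-05, adjusted 0.0001). Without 45 and 60 min, the libraries farthest from the median time, r was 0.95. The permutations treat the libraries as exchangeable although they follow each other in 1 time course. These p-values therefore do not measure spread between cultures. The coding sequences share an identical run of 35 bases, shorter than the 100-base reads, so coding reads of this pair could be exchanged only in part. No other member shares a run of 25 coding bases with another of the 6013 genes matched to R64 coding sequences. The other genes of the table, untranslated ends and opposite strands were not compared.

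**Figure D4:**
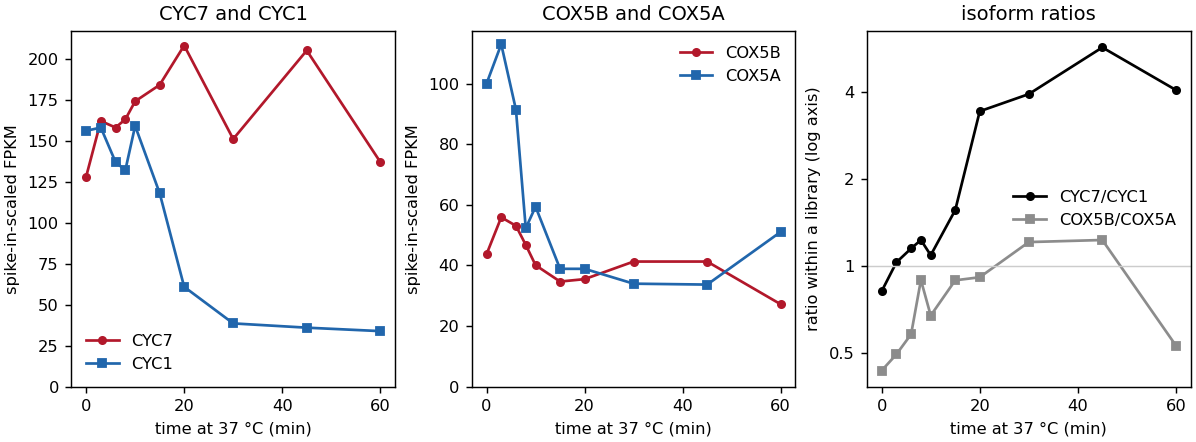
Spike-in-scaled FPKM of CYC7 and CYC1 (left) and of COX5B and COX5A (middle), and the ratios CYC7/CYC1 and COX5B/COX5A within each library on a log axis (right), against time at 37°C (min, 1 library per point). CYC1 drops between 10 and 30 min while CYC7 stays above its 0 min level, and the CYC7/CYC1 ratio goes above 3 from 20 min on.

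In complex IV, cytochrome c oxidase, 7 of 9 members were above their 0 min level at 3 min, and the median at 3 min was 113%. Both cytochrome c genes, 2 of 4 genes of complex II, 3 of 9 of complex III and 1 of 13 of the ATP synthase were also above 0 min at 3 min, with 1 library at each time and no test between groups. By the slope 8 of 9 fell, and the median level at 60 min was 55.5%. COX7 (YMR256C, chrXIII:778945), a small membrane subunit, was the exception and the most abundant by mean FPKM, with 249, 412, 263, 390, 390, 333, 356, 273, 281 and 361. All 9 later values were above 0 min, 145% at 60 min, and the fitted change was −0.03 ± 0.27 (adjusted p = 0.933). With 183 coding bases COX7 is another gene of uncertain FPKM. COX8, another small membrane subunit, had 69.5 scaled FPKM at the start, 149 at 10 min and 50.3 in the last library, so that it stood at 214% before it declined, and it fell by 1.35 ± 0.43 over the course (adjusted p = 0.0181). That call was lost without 60 min, with log2(min + 1) as the time term and over 0 to 20 min.

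COX4 and COX9 fell most within complex IV. COX4, a zinc-binding subunit, fell by 1.92 ± 0.31 (adjusted p = 0.000395) to 24.8% at 60 min, and COX9 fell by 1.73 ± 0.26 (adjusted p = 0.000315) to 24.3%. COX4 had the fewest estimated fragments of the longer genes, and COX9, with 180 coding bases, has an uncertain FPKM. The fitted changes of COX6, a subunit on the matrix side, COX12, on the intermembrane side, and COX13 in the membrane were −0.86, −1.0 and −0.72, all called, and these mRNAs were at 52.9%, 55.5% and 67.5% at 60 min.

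Subunit 5 of cytochrome oxidase also has an aerobic form, COX5A (YNL052W, chrXIV:531725), and a form expressed at low oxygen, COX5B (YIL111W, chrIX:155222, 2 coding exons). COX5A had 100, 113, 91.4, 52.3, 59.4, 38.9, 38.9, 34, 33.7 and 51.1 scaled FPKM. It lost most of its mRNA between 6 and 15 min and was higher at 60 min than at 45 min. COX5B had 43.7, 55.9, 53.1, 46.8, 40.1, 34.7, 35.5, 41.3, 41.3 and 27.2 scaled FPKM, above 0 min up to 8 min and at 62.2% at 60 min. COX5A fell by 1.22 ± 0.46 (adjusted p = 0.0399) and COX5B by 0.65 ± 0.25 (adjusted p = 0.0422), both close to the threshold. The call of COX5A was lost without 0, 3, 6, 10, 30 or 45 min (adjusted p 0.0514 to 0.104), and that of COX5B without 3, 6, 8, 20 or 60 min (adjusted p 0.0514 to 0.364). With log2(min + 1), with linear and quadratic terms or over 0 to 20 min COX5B was not called (adjusted p 0.0536 to 0.0808). COX5A was called in each of these. The COX5B to COX5A ratio was 0.436, 0.496, 0.582, 0.895, 0.675, 0.893, 0.915, 1.21, 1.23 and 0.532 from 0 to 60 min, above its 0 min value in all 9 later libraries. Its change with time, 0.57 ± 0.54 on the log2 scale, did not pass (r = 0.35, two-sided permutation p = 0.326, adjusted 0.326; rho = 0.62, permutation p = 0.0594, adjusted 0.0594), and without 45 and 60 min r was 0.91.

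The F1 head and central stalk of the ATP synthase, where ATP is made, had 5 members and 4 of them fell. ATP1 (YBL099W, chrII:37053), the alpha subunit, had 319, 292, 282, 255, 313, 233, 269, 233, 261 and 227 scaled FPKM. Its level at 60 min was 71.2% of that at 0 min, and its fitted change of −0.36 ± 0.19 was not called (adjusted p = 0.113), although it was called with log2(min + 1) as the time term (adjusted p = 0.0429). ATP2, the catalytic beta subunit that alternates with alpha in the head, had 203 scaled FPKM at 0 min and 83.5 at 60 min, which is 41.1%, and fell by 0.95 ± 0.25 (adjusted p = 0.00762). The stalk subunits also fell, ATP3 (gamma) with −1.0 ± 0.20, ATP16 (delta) with −1.37 ± 0.25 and ATP15 (epsilon) with −1.46 ± 0.24, and were at 48.9%, 35.6% and 29.3% at 60 min. The levels at 0 min lay between 117 (ATP16) and 319 (ATP1 and ATP15) scaled FPKM, which is per length. With 189 coding bases ATP15 has an uncertain FPKM.

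The membrane part and stator had 8 members, of which 6 fell, with a median fitted change of −1.40 and 38.5% left at 60 min. At 60 min 7 of the 8 (87.5%) were below 50% of 0 min. So were 50% of the 38 members and 70.6% of the 4658 named nuclear genes with at least 10 FPKM at 0 min. TIM11 (YDR322C-A, chrIV:1112003), subunit e, which joins 2 synthases into a dimer, had 306, 298, 268, 239, 305, 246, 181, 122, 183 and 128 scaled FPKM. Its level was at 78.1% of 0 min at 8 min and 99.6% at 10 min, and it fell by 1.28 ± 0.27 over the course (adjusted p = 0.00201). With 291 coding bases TIM11 is also among the short genes. ATP5 (YDR298C, chrIV:1058176), the stator subunit that grips the top of F1, had 142, 111, 88.7, 72, 96.2, 61.2, 50.3, 31.2, 50.7 and 43.9 scaled FPKM, and fell by 1.54 ± 0.40 (adjusted p = 0.00601). ATP17 (YDR377W, chrIV:1228611), subunit f, had 137, 126, 152, 167, 138, 110, 91, 56.4, 92.2 and 49.3 scaled FPKM and fell by 1.52 ± 0.31 (adjusted p = 0.00149). At 8 min ATP5 was at 50.9% of 0 min and ATP17 at 122%, with 1 library at each time and no test of that difference.

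Of the other stator subunits, ATP7 (subunit d) had −1.86 ± 0.35 and was at 27% at 60 min, ATP4 (subunit b) had −1.06 ± 0.26 and was at 44.7%, and ATP14 (subunit h) had −1.01 ± 0.25 and was at 41.1%, and all of them fell. ATP20, subunit g of the dimer interface, had 129 scaled FPKM at the start, a low of 33.9 at 15 min and 73.3 in the last library and was not called (−0.35 ± 0.47), although it was over 0 to 20 min (adjusted p = 0.00845), with log2(min + 1) as the time term (adjusted p = 0.0369) and with linear and quadratic terms (adjusted p = 0.0211), each time as falling. ATP18 (YML081C-A, chrXIII:103983, 180 coding bases), subunit i, had 21.6, 10.4, 13.6, 52.6, 37.2, 0, 22.1, 0, 7.61 and 7.38 scaled FPKM. It was listed at 0 in the 15 and 30 min libraries and highest at 8 min, and its fitted change of −1.98 ± 1.60, the second most negative of the 38, was not called (adjusted p = 0.302).

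**Figure D5:**
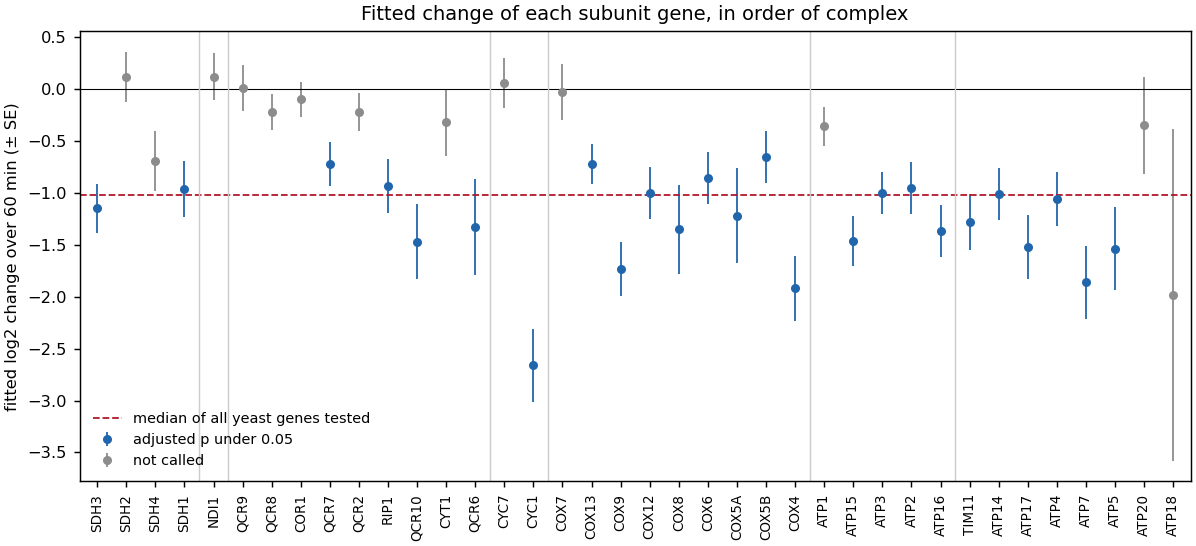
Fitted log2 change over 60 min with its standard error (y axis) for the 38 mRNAs in order of complex (x axis), from limma on log2(spike-in-scaled FPKM + 1) over 10 libraries; blue points passed an adjusted p of 0.05 and grey points did not. The dashed line is the median of all yeast genes tested, −1.02; CYC1 lies lowest at −2.66 and 5 of the 9 complex III points are grey and above −0.5.

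Half-lives were fitted as an exponential decay from the 0 min level, and kept where the mean absolute residual was at most 0.14 and the half-life at most 60 min. This left 20 of 38 members (52.6%), beside 53.2% of 5269 nuclear genes fitted. The median half-life of those kept was 35.5 min for the members and 15.8 min over the 2801 genes kept. Complex II and the F1 head had medians of 43 min (3 kept) and 35.5 min (4 kept), and the membrane part and stator had 25.5 min (6 kept). Complex III and complex IV kept only 3 of 9 each, and 13 of the 38 had a half-life above 60 min or no decay, so the medians leave out the mRNAs that lasted longest by this fit. The residual limit removed 8, some of which are also among the 13.

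The shortest half-lives kept were 8.33 ± 5.13 min for QCR6 and 14.5 ± 6.78 min for ATP5 (estimate ± SE), and the longest were 57.4 ± 22.8 min for QCR7 and 48.8 ± 31 min for ATP17. The errors are large beside the differences between most members. QCR6 and ATP5 dropped early and then leveled off, and a straight line through the logarithm gave 43.8 and 38.3 min for them. CYC1, which held its level before it dropped, had 23.7 ± 10.1 min, COX4 had 23 ± 7.14 min and ATP7 had 20 ± 7.48 min. For COX7, COX8, CYC7 and SDH2 the curve, which starts at the 0 min level, gave no decay. Such a curve cannot follow the rise of COX8 to 214% at 10 min (mean absolute residual 0.506), and COX8 fell by the slope. COX7 and CYC7 also exceeded the residual limit (0.256 and 0.25).

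Other genes of the pathway, from lists by function, were described by the same test on spike-in-scaled values. Over all yeast genes tested 53.0% fell and 1.79% rose, with a median fitted change of −1.02 and 35.9% left at 60 min. Of 43 assembly factors of the complexes 33 fell and 0 rose, with a median fitted change of −1.16 and 36.5% left at 60 min. Among them COA4, a factor for complex IV, and BCS1, which helps insert the Rieske protein RIP1, had −3.19 ± 0.47 and −2.57 ± 0.37, and the copper chaperone COX17, an mRNA bound by Puf3, had −0.85 ± 0.27, all called. All 4 ATP synthase inhibitors and other subunits (INH1, STF1, STF2 and ATP19) fell. Of 11 citric acid cycle enzymes outside complex II 4 fell and 7 were not called, with a median of −0.37, and the citrate synthase CIT1 had 0.33 ± 0.19. Of the regulators, HAP1, HAP3, HAP5, ROX1 and PUF3 fell and HAP2 and HAP4 were not called. HAP2, a DNA-binding subunit of the Hap complex, had −0.45 ± 0.36 (adjusted p = 0.294). HAP4, the activating subunit of the Hap complex, had 214 scaled FPKM at the start, 94.1 at 10 min and 154 in the last library, with a fitted change of 0.12 ± 0.40 (adjusted p = 0.805).

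Subunits encoded in mitochondrial DNA are made by the mitochondrial RNA polymerase and not by RNA polymerase II. Of 6 tested, COX2 rose by 0.73 ± 0.22 (adjusted p = 0.0135) and OLI1 by 0.46 ± 0.18 (adjusted p = 0.049), COX1, COX3, COB and ATP6 were not called, and 0 fell. Their median stood at 139% of 0 min at 60 min, beside 50.5% for the 38 nuclear genes. OLI1 had 195 scaled FPKM at 0 min and the others tested lay between 3.51 and 28.7, beside a median of 138 for the nuclear genes. These RNAs are largely not polyadenylated in yeast, and their FPKM depends on how RNA was selected, which was not tested.

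The sequence features were set beside the fitted changes as a description. The 17 genes with ACCAATNA had a median fitted change of −1.0, with 15 called as falling. The 21 without it had −0.95, with 10 called, and 53.0% of all genes tested were called as falling. Median levels at 60 min were 50% with the motif and 51% without it. Median half-lives were 38.1 min (11 kept) with it and 23.7 min (9 kept) without it, and no difference was tested. The 7 genes with TGTANATA had a median fitted change of −1.01 and the 31 without it −0.95. The paper scored transcripts by published codon definitions and compared *caf1*Δ half-lives with wild type, so its measures differ from those used here. The share of optimal codons was counted here over the 9 optimal and 9 non-optimal codons of the study's reporters. This share had a median of 69.1% in the 38 genes and 52.7% in the 5422, from 41.2% in COX5B to 88.7% in ATP1. Across the 38 genes, which share the same 10 libraries, its Spearman correlation with the fitted change was −0.03, while that of coding length was 0.32.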

How the data were processed

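RNA of the *rpb1-1/caf1*Δ strain was sequenced at 10 time points with paired 100-base reads, with ERCC spike-ins added to the RNA. The authors aligned reads to SacCer2 with Bowtie 0.12.7, and deposited FPKM values from Cufflinks 1.3.0, which carry no spike-in scaling. Both a total RNA and an mRNA kit are named, without saying which made these libraries. The labels name the *caf1*Δ strain by number and, in the growth protocol, its *rpb1-1* parent with intact *CAF1*, and a second culture they mention was not used here.

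Each FPKM was divided by its library's summed spike-in FPKM relative to 0 min. All yeast genes with a mean of at least 1 entered limma 3.58.1 (R 4.3.3, empirical Bayes with trend) on log2(FPKM + 1) with time in min, with Benjamini-Hochberg adjustment and a threshold of 0.05. The libraries are 1 time course, so p-values measure scatter about a trend, not spread between cultures. Half-lives were least-squares fits with numpy 2.4.6, whose SE takes noise in proportion to the fitted level, and isoform ratios used 100000 permutations (Python 3.11.15). Both fits were tested on simulated data. For the slope the simulated noise was drawn separately for each gene and library, without shifts shared by a whole library. Genes were matched by systematic name to R64, which is not the authors' build, and sequences, starts and coordinates are R64's, credited to RefSeq. Promoter windows were taken from that genome, and ACCAATNA was added to CCAAT after the data were seen. Reads of antisense genes were not separated. Fragment numbers come from the steps of low FPKM values, 116 to 293 per library, of genes with at least 900 coding bases. Depth was chosen so that these values lay closest to whole fragments. Of them 93.1% to 96.9% per library lay within 0.1 of a whole fragment, which is no independent check.

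All 10 values are given for the member with the highest mean in each role group, both isoform pairs, members that rose, and the 2 extremes of slope and of half-life at each end (FPKM of at least 10 at 0 min). Other members are given by single values. The members and lists were chosen with earlier results of these data known. Alternatives were other scalings, pseudocounts of 0.1 and 10, other filters, time terms, decay models and time ranges, longer genes, and each time point left out. A test of named nuclear genes only was chosen after seeing the data, and the test of isoform ratios was not among the planned tests.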

Additional observations from a re-analysis of the deposited data

How the results depend on the processing

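On deposited FPKM without spike-in scaling 1 member rose, 8 had a half-life and the median level at 60 min was 71.8%; with the same total yeast FPKM 15 were called, 6 fell, 9 rose, 4 had a half-life and the median level was 96%. Over 0 to 20 min 21 fell and 1 rose, against 54.3% and 2.63% of all genes. In that range 9 had a half-life and their median was 13.7 min, where half-lives above 20 min were left out by construction. Scaling to the median spike-in ratio, pseudocounts of 0.1 and 10, the filters, the time terms, the decay models, genes of at least 300 coding bases and the test of named nuclear genes only kept each of these counts within 1.5 times. Leaving out each time point in turn gave 22 to 25 members that fell, 0 that rose, 18 to 21 with a half-life and a median half-life of 29.8 to 38.3 min. Of all genes 43.6% (without 60 min) to 55% (without 15 min) fell and 1.16% to 2.02% rose in these tests. The median of the members was below that of all genes, not above it, with a pseudocount of 10 (−0.91 and −0.64), without the filter (−0.98 and −0.89), and, by no more than 0.05, without 0 min or 3 min. At the same total yeast FPKM 11 members with a negative fitted change had a positive one: among those named with all libraries COX7 (0.81), ATP1 (0.47), COX5B (0.17) and QCR7 (0.11), and besides them COR1, QCR2, QCR8, CYT1, ATP20, COX13 and SDH4. There the fitted half-life of QCR7 was negative (−516 min, no decay). Of 489 values of the 16 members named with all libraries under alternatives, 404 were unchanged in call or within their error. No paired analysis was possible because there are no 2 libraries of the same time. The 0 min library could not be left out of half-lives or levels, which are relative to it. Genes with few fragments, such as COX4, and those under 300 coding bases are limited by depth and length.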
